A study of Mus musculus with 4 samples.

Results

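The joint response of mouse primary intestinal epithelial cells to interleukin-17A (IL-17A) and fibroblast growth factor 2 (FGF2) was set against what the responses to each factor alone add up to. All 4 arrays of the series entered as a 2 by 2 layout: untreated cells, cells given IL-17A at 50 ng/ml, cells given FGF2 at 5 ng/ml, and cells given both at these doses, each stimulated for 6 h. How long the untreated cells were cultured is not stated in the labels. Per the labels' protocols the cells were grown from isolated crypts on fibronectin. Each group was 1 array, so there was no replicate spread and no test, and every value below describes these 4 arrays. A gene was kept when its brightest probe set, the one with the highest mean log2 signal over the 4 arrays, had a mean of at least 8, and 8851 of 18193 genes were kept. At this limit Cadps2 was the dimmest gene inside and Nxpe4 the brightest outside, with departures from the product, as defined below, of 0.63 and 0.64.

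IL-17A is released by T helper 17 cells and other lymphocytes of barrier tissues. Its receptor signals through the adaptor Act1 to NF-kB, C/EBP factors and proteins that steady short-lived cytokine mRNAs, and in the gut it raises neutrophil-attracting chemokines and antimicrobial proteins. FGF2 binds receptor tyrosine kinases that act through ERK and AP-1 factors, and it is known for its part in tissue repair. Genes that carry sites for both sets of factors, or whose mRNA one of them steadies, are the usual examples of a response that exceeds its parts.

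A joint response has more than 1 null expectation. If each factor multiplies a gene's signal by the same fold whether or not the other is present, the combined signal equals IL-17A times FGF2 over untreated, called the product here. If each factor adds the same number of signal units, it equals IL-17A plus FGF2 minus untreated, called the sum. The departure from the product is the log2 of the combined signal over it, which is log2 combined minus IL-17A minus FGF2 plus untreated. The departure from the sum is given as a ratio of the combined signal to the sum, with sums below a floor of 89.8, which is the median signal, raised to that value. A gene that both factors raise, or both lower, has a product above its sum by arithmetic, and a gene moved in opposite directions has a product below it. Departures of at least 1.5-fold, 0.58 on the log2 scale, were counted.

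Most genes lay close to both expectations. The departure from the product had a median of 0.02 and an SD over genes of 0.24, and 8595 genes (97.1%) were within 1.5-fold of the product. The combined signal was above the product in 153 genes (1.73%) and below it in 103 (1.16%). It was above the sum in 281 genes (3.17%) and below it in 85 (0.96%). Above both lay 145 genes, above the sum alone 136, below both 75 and below the product alone 28. At 2-fold, 14 genes (0.158%) were above the product and 10 (0.113%) below, and 65 (0.734%) were above the sum and 8 (0.0904%) below.

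**Figure D1:**
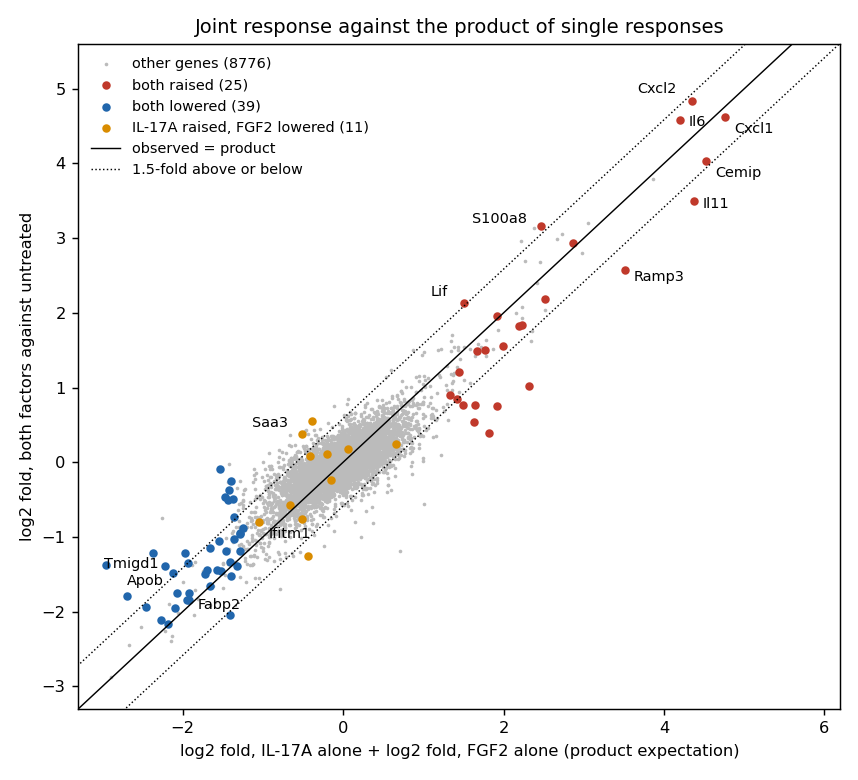
Log2 fold of the combined array against untreated (vertical axis) plotted against the sum of the log2 folds of each factor alone, which is the product expectation (horizontal axis), for 8851 genes. Points are genes, 1 array per group, coloured by single response, and dotted lines mark 1.5-fold. Cxcl2, Il6 and Cxcl1 lie near the solid line at the upper right, while Il11 and Ramp3 lie below it.

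These counts have to be read against brightness and the controls. The SD of the departure fell from 0.33 in genes with a mean log2 of 8 to 9 to 0.13 at 12 and over, and the share off the product from 7.65% to 0.453%. Between probe sets of 1 gene the departure had an SD of 0.27. Of the genes off the product, 45 had other probe sets with a mean log2 of at least 8, and in 18 of these 1 of them had a departure of the opposite sign. The 12 control probe sets for mouse RNA had departures of −0.59 to 0.03 with a median of −0.13, and 1 was past 1.5-fold below the product. The 18 hybridisation spike probe sets, which report RNA added to each array's hybridisation mix, had departures of −0.0074 to 0.28, none (0) past 1.5-fold. The 20 poly-A spike probe sets, which report RNA added before labelling, ran from −0.20 to 1.14 with a median of 0.54, and 8 were past 1.5-fold above the product. Their mean log2 signal was 9.45 on the untreated array, 9.87 with IL-17A, 8.96 with FGF2 and 9.90 with both, so it was lowest with FGF2 alone.

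**Figure D2:**
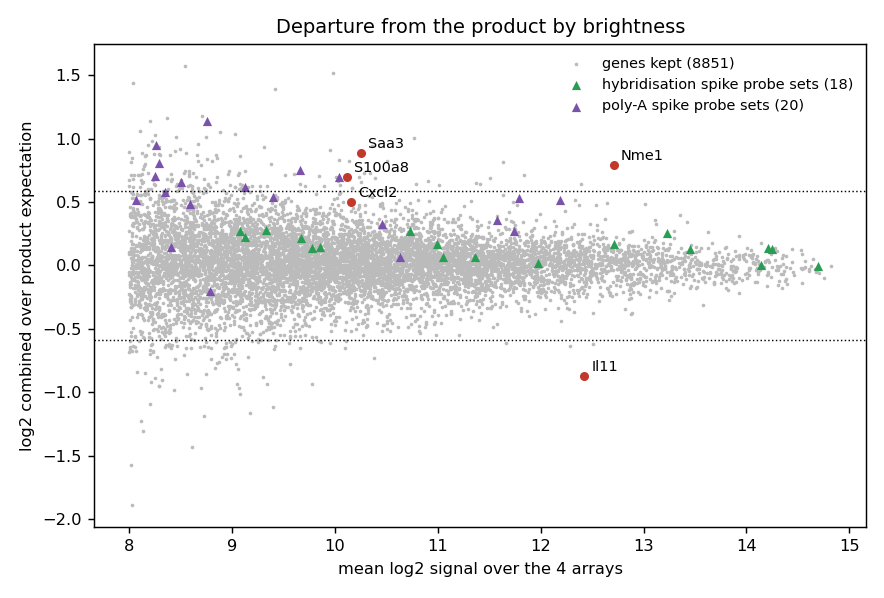
Departure of the combined signal from the product (log2) against mean log2 signal over the 4 arrays. Grey points are the 8851 genes kept, triangles the spike control probe sets and dotted lines 1.5-fold. The spread narrows with brightness, and 8 of 20 poly-A spike probe sets lie above the upper line.

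The labelled cell type was checked on marker genes. All 9 general epithelial markers, Epcam and Krt8 among them, were over the floor, and their signals summed to 125363 to 133552. All 10 fibroblast markers (summed signals 72564 to 80870), 11 endothelial markers (8661 to 12750) and 9 macrophage markers (5700 to 7344) were over the floor as well. Of lymphocyte markers 2 of 7 and of neutrophil markers 1 of 6 were over it. The arrays do not show which of these cells made a given mRNA, and in bulk RNA fewer cells of a type and less RNA per cell cannot be told apart.

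Genes that both factors raised at least 1.5-fold numbered 25. Cxcl1, Cxcl2, Il6 and Lif, which encode neutrophil chemoattractants and IL-6 family cytokines, came near the product or above it, and so well above the sum. Il11, Ier3 and Timp1 fell short of the product, Il11 by over 1.5-fold, and came nearer the sum. Over the 25 genes the median departure was −0.39 and the median ratio to the sum 1.0, with 2 above and 8 below the product, and 6 above and 4 below the sum. An array that read high or low for a gene would both place it in such a class and shift its departure, and the part of this was not tested.

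Of the 25, 4 genes had a combined signal at least 2 times the sum, and their promoters are shown because they are the members in which the joint response most exceeded addition. The sequences are the 250 bases before each start site, from RefSeq on GRCm38.p6, written 5′ to 3′ on the gene's strand. Capitals mark matches, on either strand, to an NF-kB motif (GGG and TTCC with 3 bases of any kind between them), TGANTCA (AP-1) or TTGCNNAA (C/EBP). The windows are chr5:90903649-90903898 (plus strand) for Cxcl2, chr5:30012864-30013113 (plus) for Il6, chr3:90668821-90669070 (plus) for S100a8 and chr5:90890995-90891244 (plus) for Cxcl1.
Cxcl2: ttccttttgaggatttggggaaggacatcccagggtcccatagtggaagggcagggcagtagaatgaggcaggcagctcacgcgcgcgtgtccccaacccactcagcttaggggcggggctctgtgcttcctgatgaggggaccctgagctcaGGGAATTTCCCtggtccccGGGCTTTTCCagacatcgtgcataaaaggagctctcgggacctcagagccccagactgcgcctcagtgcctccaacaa
Il6: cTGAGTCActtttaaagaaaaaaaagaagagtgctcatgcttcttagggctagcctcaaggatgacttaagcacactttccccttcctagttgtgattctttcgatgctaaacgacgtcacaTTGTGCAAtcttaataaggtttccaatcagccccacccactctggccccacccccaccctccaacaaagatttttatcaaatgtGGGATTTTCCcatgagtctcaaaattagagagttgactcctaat
S100a8: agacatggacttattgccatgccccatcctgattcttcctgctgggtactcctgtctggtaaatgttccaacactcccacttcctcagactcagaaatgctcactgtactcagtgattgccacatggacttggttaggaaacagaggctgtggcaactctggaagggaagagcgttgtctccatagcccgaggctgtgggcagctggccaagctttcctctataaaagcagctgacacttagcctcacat
Cxcl1: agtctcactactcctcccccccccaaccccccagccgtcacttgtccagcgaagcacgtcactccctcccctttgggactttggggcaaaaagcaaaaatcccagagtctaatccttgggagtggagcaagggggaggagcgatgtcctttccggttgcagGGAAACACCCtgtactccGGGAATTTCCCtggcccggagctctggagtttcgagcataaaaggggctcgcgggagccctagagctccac

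The Cxcl2 window held 3 NF-kB matches, starting 97, 96 and 78 bases before the start site, the first pair on opposite strands of overlapping letters. That of Cxcl1 also held 3, at 89, 71 and 70 bases, and its pair at 71 and 70 overlaps in the same way. The Il6 window held an NF-kB match at 44 bases, a C/EBP match at 128 and an AP-1 match at 249. The S100a8 window held no match (0) to any of these letters, which says only that they are not in this window. Of 32851 mouse promoter windows of this length, 4.65% held the NF-kB motif, 6.75% AP-1 and 9.56% C/EBP. Of the other genes raised by both factors, Lif had an AP-1 match at 228 bases, Il11 an AP-1 match at 98 bases in 1 of its 2 windows, and Cemip, Ptges, Timp1 and Ier3 had none of these motifs. These matches are descriptions of letters and not of binding.

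Cxcl2 encodes a chemokine that draws neutrophils through the receptor Cxcr2. Its signal was 232 untreated, 969 with IL-17A, 1130.1 with FGF2 and 6656 with both. The combined array stood far above each single factor, at 3.57 times the sum of 1867 and 0.50 (log2) above the product of 4715. Its 4790 signal units above the sum were the largest such difference among the genes named by rule, which passes over Cxcl1 (6453 units) because 1 of its probe sets departs from the product the other way. Under 11 processing alternatives the ratio to the sum ran from 3.45 to 4.07 and the departure from the product from 0.41 to 1.5.

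Cxcl1, a close relative of Cxcl2 with the same receptor, had signals of 484, 4587, 1387 and 11943 in the same order. It reached 2.18 times the sum, and its departure from the product was −0.14. Of its 2 other probe sets, 1 had a departure of 0.21 and the other −0.05, with ratios to the sum of 2.02 and 1.79, so all of them put it above the sum and near the product. Cxcl5, another ligand of Cxcr2, behaved otherwise: it had signals of 315 untreated and 373 with FGF2 against 3878 with IL-17A and 4362 with both. FGF2 changed it by less than 1.5-fold with or without IL-17A, and it matched both expectations (departure −0.07, ratio 1.11). Cxcl3 lay between them (163, 312, 218 and 534, departure 0.36, ratio 1.46). Over the 6 kept genes of 7 neutrophil-attracting CXC chemokines the median departure was 0.08, and 2 were above the sum.

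In the IL-6 family, whose members signal through the receptor chain gp130, Il6 itself had signals of 146, 937, 417 and 3491. It reached 2.89 times the sum and lay 0.38 above the product. Lif, a cytokine that keeps stem cells undifferentiated in culture, had 445, 806, 696 and 1949.5, at 1.85 times the sum and 0.63 above the product. Both exceeded the sum, and Lif also passed 1.5-fold over the product. Il11, whose product acts on stromal and epithelial repair, went the other way, with 1404, 3016, 13544 and 15869.7. Its combined signal was 1.05 times the sum of 15156 and lay 0.87 below the product of 29100. It was the lowest departure among genes with a mean log2 of at least 11, and over the alternatives it stayed between −0.98 and −0.83. The 8 kept members of this family with their receptors and feedback genes had a median departure of 0.26, 7 of them above 0, and the median was 0.05 to 0.26 over the alternatives. The median over all genes was 0.02, and 54.3% of them were above 0.

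S100a8, a subunit of calprotectin that binds zinc and calcium and is abundant in neutrophils, had signals of 419, 717, 1348 and 3740. It was 2.27 times the sum and 0.70 above the product, and the combined array held the highest signal. Summed neutrophil markers were 364, 447, 256 and 405 in the same order, lowest with FGF2, and 5 of 6 were under the floor on every array. Reg3b, a bactericidal lectin of the gut, was lowered by both factors (2151, 945, 756 and 624). It lay 0.91 above the product, while its other kept probe set lay 0.41 above, within 1.5-fold. Saa3, an acute phase apolipoprotein, was raised by IL-17A and lowered by FGF2 (1249, 3397, 323 and 1627). It was the only gene (1) above the product, by 0.89, and below the sum, at 0.66 times it. Of 8 kept antimicrobial and acute phase genes these 3 were above the product, although 1 was raised, 1 lowered and 1 moved in opposite directions. Lcn2, which binds bacterial siderophores, had 1300.4, 6751, 1339 and 6843, and it matched both expectations (departure −0.02, ratio 1.01). Pigr, the carrier of IgA across epithelium, had 337, 1647, 227 and 986. It lay 0.17 below the product and at 0.64 times the sum. Its other kept probe set departed from the product by −0.94, past 1.5-fold, and was at 0.54 times the sum.

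**Figure D3:**
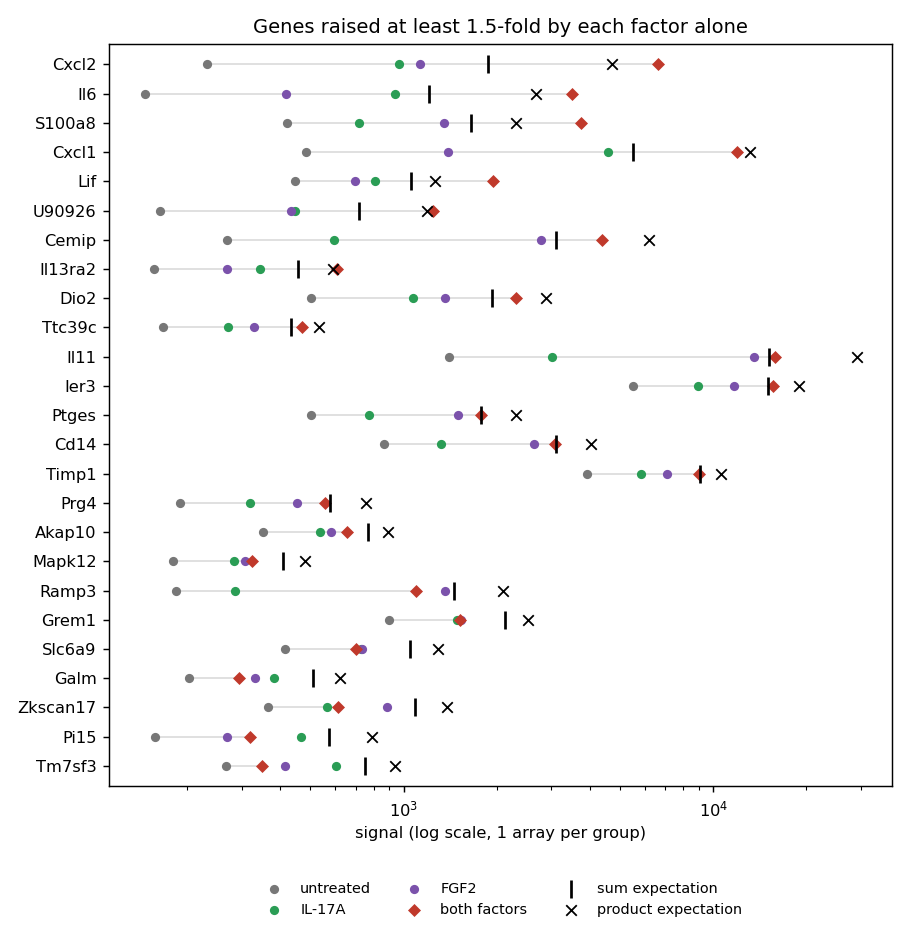
Signals of the 25 genes raised at least 1.5-fold by each factor alone, on a log scale, 1 array per group. Circles are the untreated and single-factor arrays, diamonds the combined array, ticks the sum and crosses the product, with genes ordered by the ratio to the sum. In Cxcl2, Il6, S100a8 and Lif the diamond lies right of both marks, while in Il11, Ier3, Ptges and Timp1 it lies on or near the tick.

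U90926, a symbol outside the rule for named genes, was the sixth gene of this class above the sum (163, 447, 434 and 1248, ratio 1.74). The others lay within 1.5-fold of the sum or below it. Cemip, needed for hyaluronan breakdown, had 268, 598, 2777 and 4382, at 1.41 times the sum and 0.50 below the product. With the floor at the 75th percentile of signals, which its untreated signal lies under, the departure was 0.30 above the product instead. Ier3, an immediate early survival gene, had 5521, 8953, 11628 and 15645 (ratio 1.04), and Timp1, an inhibitor of matrix metalloproteases, 3902, 5857, 7080 and 8988 (ratio 0.99). Ptges, which makes prostaglandin E2, had 503, 774, 1504 and 1782 (ratio 1.0), and its other probe sets lay above the product by 0.38 and 0.39. These combined signals were the highest of the 4 arrays and yet near what addition gives. Grem1, a BMP antagonist, had 900, 1486, 1533 and 1524. Either factor alone already gave the combined level, which was 0.72 times the sum. Ramp3, a chaperone of the calcitonin receptor family, had 184, 285, 1357 and 1099, lower with both factors than with FGF2 alone, at 0.75 times the sum and 0.94 below the product.

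Among the 46 genes that IL-17A alone raised, the median departure was −0.12, and 2 were above and 9 below the product. The 2 above were Zc3h12a, a ribonuclease that degrades cytokine mRNAs, and Ccl2, a chemokine for monocytes. Zc3h12a had signals of 204, 1013, 192 and 1595, so FGF2 changed it by less than 1.5-fold by itself and raised it 1.58-fold beside IL-17A. Its departure was 0.74 and its ratio to the sum 1.59. Ccl2 had 629, 1216, 597 and 1786, with a departure of 0.63 and a ratio of 1.51. Summed macrophage markers were 5700, 5960, 6771 and 7344, highest on the combined array. Of these markers Cd14, itself among the genes raised by both factors, had 862, 1318, 2640 and 3081. No other macrophage marker was raised 1.5-fold on any array, and Lyz2 was lower on each treated array (1554, 1214, 1258 and 1061). The part of macrophages in the Ccl2 signal was not tested. Sprr2f, a small proline-rich protein of stressed epithelium, was above the sum as well (768, 3590, 1045 and 6091, ratio 1.58). Tnfaip3 and Nfkbiz, which restrain and direct NF-kB, kept to both expectations, with departures of −0.01 and 0.11. Of 18 kept genes of NF-kB feedback and mRNA decay, only Zc3h12a (1 gene) was off the product. Of all kept genes 97.1% were within 1.5-fold of it.

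The 147 genes raised by FGF2 alone had a median departure of −0.19, with 1 above and 14 below the product. The gene above it was Mmp9, a gelatinase, with signals of 109, 124, 494 and 952, a departure of 0.76 and 1.87 times the sum. Mmp13, a collagenase, had 1398, 1674, 5639 and 9027 (departure 0.42, ratio 1.53), and Arg2, an arginase, had 176, 258, 796 and 1458 (0.32, 1.66). In these 3 genes IL-17A alone changed the signal by less than 1.5-fold and raised it at least 1.5-fold when FGF2 was present. Mmp19, which neither factor alone moved 1.5-fold, passed in the other direction, below the sum (429, 390, 476 and 289, ratio 0.66). Mmp3 and Mmp10 did not pass: Mmp3 had 2373, 3529, 12604 and 16517 (ratio 1.20) and Mmp10 had 6006, 6204, 14775 and 18447.5 (ratio 1.23). The median over 20 kept matrix proteases and inhibitors was −0.00. Below the product were Epgn, an EGF receptor ligand (173, 230, 662 and 582, departure −0.60), and Hgf, a growth factor for epithelium (396, 481, 628 and 468, departure −0.70). The 9 kept EGF family genes had a median departure of −0.22, and 3 were above 0, beside 54.3% of all kept genes. That median was −0.25 to −0.19 over the alternatives. None (0) of 15 kept genes of FGF and ERK feedback was off either expectation, beside 4.53% of all kept genes. Summed endothelial markers were 9209, 8661, 11863 and 12750, higher on both arrays with FGF2, and their part in the FGF2 genes was not tested.

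Both factors lowered 39 genes, whose median departure was 0.33. Among them were 5 of the 25 kept genes in the lists of lipid absorption, brush border and ileal bile acid handling, beside 39 of all 8851 kept genes. These lists cover functions of absorptive enterocytes and were chosen with earlier results of these data known. Of the 39 genes, 13 lay above the product and 1 below, and 36 were above the sum and none (0) below it. Subtracting both losses would leave less than the floor in 17 of them, and in these the ratio is to the floor, under which no sum is drawn. Fabp2, a fatty acid carrier of enterocytes, had 3058, 1347, 1827 and 909.96, against a product of 805 and a sum of 116. Apob, which builds chylomicrons, had 2765, 998, 1827 and 826 (departure 0.32). For both the loss was close to multiplicative. Hpgd, which breaks down prostaglandins, was nearly exactly so, with 2224, 1028, 1059.7 and 497 (departure 0.02). Slc51a, a bile acid exporter, had 560.3, 269, 274 and 144 (0.13).

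In other genes of this set the combined signal stayed near that of FGF2 alone. Tmigd1, an adhesion protein of the enterocyte brush border, had 5087, 2946, 2017 and 1818, 0.64 above the product. Car1, a carbonic anhydrase of the colon, had 1963, 1124, 735 and 750.03 (departure 0.83), and S100g, a vitamin D-dependent calcium carrier, 793, 345, 235.5 and 305 (1.57). IL-17A lowered these 3 genes when given alone, yet their combined signals were within 1.5-fold of FGF2 alone. Slc9a3, the apical sodium-proton exchanger, showed the same order as Car1 and S100g, lowest with FGF2 alone (616, 358, 204 and 266, departure 1.16). Fgf15, which signals from the ileum to the liver to lower bile acid output, was the 1 gene below the product, with 484, 285, 311 and 117 and a departure of −0.64, close to its sum (ratio 1.06). That departure was 0.06 with a floor at the 75th percentile of signals, which its combined signal lies under. Summed general epithelial markers were 125363, 129345, 131859 and 133552, not lower on the treated arrays. The brush border marker among them, Vil1, was lower on each (4297, 3630.2, 3417 and 2655), 1.5-fold or more only with both factors. Summed fibroblast markers were 76009, 80870, 72564 and 77238, but the members did not move together. Col1a1, Col1a2, Col3a1, Pdgfra, Thy1 and Fap were lower on both arrays with FGF2 than untreated. Dcn, Pdpn and Vim were higher on both, and Lum was lower with FGF2 alone and higher with both factors. Pdgfra, for example, had 4992.5, 4172, 2340 and 1984, and Pdpn 4205, 4877, 8924 and 10316.5.

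**Figure D4:**
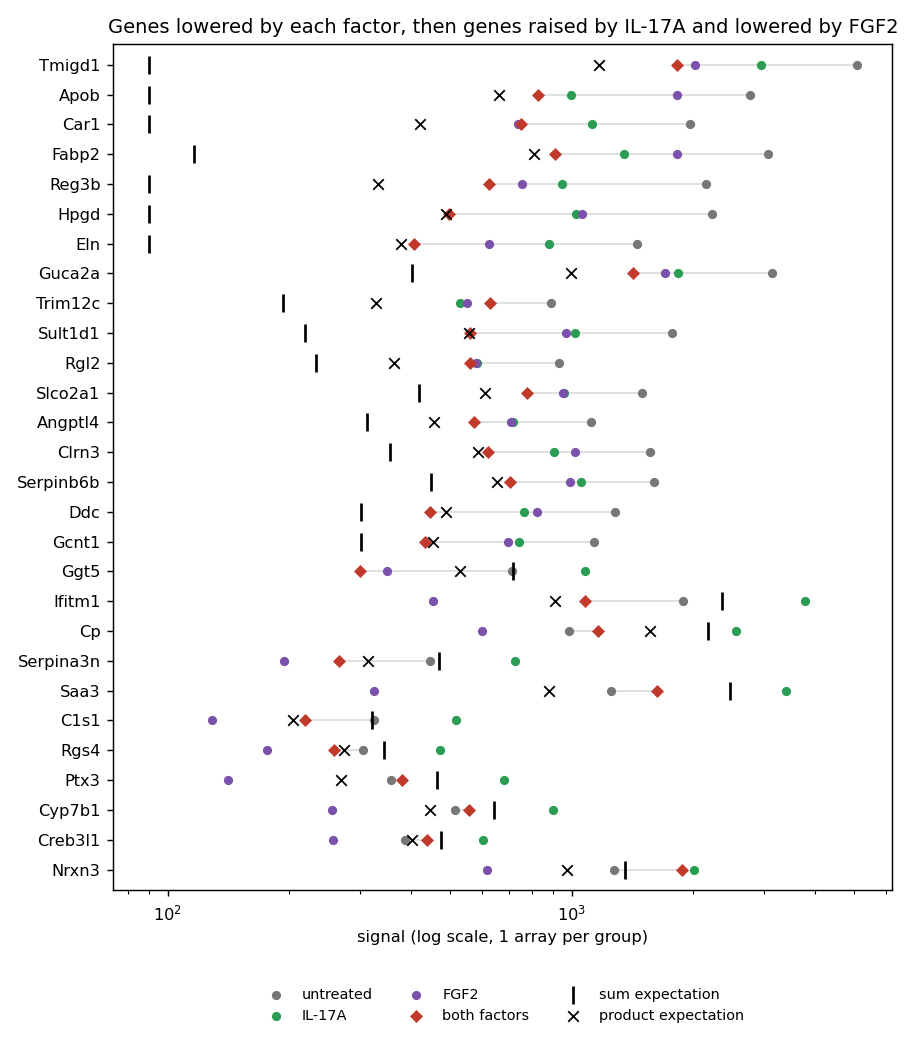
Signals on a log scale, 1 array per group, of the 17 brightest of the 39 genes lowered at least 1.5-fold by each factor (Tmigd1 to Gcnt1) and of the 11 genes raised by IL-17A and lowered by FGF2 (Ggt5 to Nrxn3). Symbols are as for the genes raised by both, and sums under the floor are drawn at it. In the first set the diamond lies right of the sum, and in the second it lies left of the sum in all but Nrxn3.

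Genes lowered by 1 factor alone were also more often above than below the product. Of 46 genes lowered by IL-17A alone 14 were above it and 0 below, and of 243 lowered by FGF2 alone 39 were above and 1 below. Some bright members sat near the product. Among those lowered by IL-17A, the apolipoprotein gene Apoa1 had 12845, 6771, 10645 and 5006 (departure −0.16). Among those lowered by FGF2, the stromal protease gene Adamdec1 had 11129.7, 9843, 2849.9 and 2118 (−0.25) and Col1a1, a collagen chain, 4986, 4722, 2386 and 2408 (0.09). Other members lay above the product. Among those lowered by FGF2 were the splicing factor gene Snrnp40 (by 0.71) and the ribosomal protein gene Rpl37 (by 0.82). Their mean log2 signals, 11.8 and 11.6, were near that of Col1a1 (11.7). Rpl37 was read by a probe set of a kind open to related transcripts. Among those lowered by IL-17A, the mitochondrial ribosomal gene Mrpl33 lay above by 0.82, but was dimmer than Apoa1 (10.5 against 13.0). These examples were chosen after their values were seen. Of the 14 genes lowered by IL-17A and above the product, 0 had a mean log2 of 11 or over, against 6 of the 32 others. Of the 39 lowered by FGF2 and above it, 2 were this bright, against 26 of the 204 others. The 12 kept smooth muscle contractile genes had a median of −0.14, and 2 were above 0, beside 54.3% of all kept genes. Over the alternatives their median was −0.16 to −0.10. Genes above the product were mostly dim: 12 of the 14 lowered by IL-17A and 24 of the 39 lowered by FGF2 had a mean log2 under 9. All 14 and all 39 had their lowest signal on the array of that factor alone, which the limits of class and call fix in advance. Tcl1b3, related to the Tcl1 oncogene, was lowest with IL-17A (1701, 395, 1525 and 1015, departure 1.52). Acaa1a, a peroxisomal thiolase, was lowest with FGF2 (882, 839, 346 and 866, departure 1.39). The poly-A spikes were lowest on the FGF2 array, and their part in the departures of the FGF2 genes was not tested.

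IL-17A and FGF2 opposed each other in 11 genes, all raised by IL-17A and lowered by FGF2, and 0 genes were moved the other way round. Of these genes 5 were below the sum and none (0) above, and the median departure from the product was 0.12. Ifitm1, an interferon-induced membrane protein, had 1882, 3791, 453 and 1079.9. Its fold with IL-17A was 2.01 without FGF2 and 2.39 with it, so the combined signal lay near the product of 912 and at 0.46 times the sum of 2362. Serpina3n, an acute phase protease inhibitor, had 447, 723, 194 and 265 (departure −0.24, ratio 0.56), and Ptx3, a soluble pattern receptor, 358, 681, 141 and 381 (0.51, 0.82). Cp, the copper carrier ceruloplasmin, had 983, 2557, 599 and 1160.3 (−0.43, 0.53), but its other probe sets had departures of 0.21, 0.52 and 0.55. Ggt5, a gamma-glutamyltransferase, was below both expectations (713, 1079.6, 349 and 299, departure −0.82, ratio 0.42).

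The largest departures from the product belonged to dim genes outside the lists. Of the 15 highest named by rule, 11 had a mean log2 under 9, as did 10 of the 15 lowest, and 0 of these 30 were list members. The highest were S100g (1.57), Tcl1b3 (1.52), Unc93b1 (1.44), Acaa1a (1.39) and Mink1 (1.18). The lowest were Ces5a (−1.89), Dact2 (−1.57), Tm7sf3 (−1.43), Pi15 (−1.31) and Zcchc12 (−1.23). Among these, Tcl1b3, Acaa1a, Ces5a and Tm7sf3 were read by probe sets of a kind open to related transcripts. Of these genes only Tm7sf3 had another kept probe set, which departed by −0.13. Dact2 and Dkk3 (−1.19) were lowest on the combined array, with 239, 323, 357 and 162 for Dact2 and 458, 712, 382 and 261 for Dkk3. The other kept probe set of Dkk3 departed by −0.59. Of the highest genes by rule, Unc93b1 was not in the promoter table, and the first 6 that were are S100g, Tcl1b3, Acaa1a, Mink1, Slc9a3 and Pde7b. In their upstream windows S100g and Acaa1a held a C/EBP match, Slc9a3 an NF-kB match, and Tcl1b3, Mink1 and Pde7b none of the motifs.

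By function, 51 gene lists (41 of processes and 10 of cell type markers) held 514 distinct kept genes. Of these 14 (2.72%) were above and 5 (0.973%) below the product, and 31 (6.03%) above and 5 (0.973%) below the sum, beside 1.73%, 1.16%, 3.17% and 0.96% of all kept genes. In 27 of the 41 process lists no member was off the product, and in 18 none was off either expectation. The list medians ran from −0.22 to 0.26, so no function as a whole departed by 1.5-fold. Lists with 2 or more members above the sum were CXC chemokines (2 of 6), IL-6 family (2 of 8), antimicrobial genes (2 of 8), matrix proteases (2 of 20), proteoglycans and elastic fibres (2 of 10), the ileal bile acid axis (2 of 3), lipid absorption (4 of 15) and the brush border (3 of 7). In the first 4 these members were raised by at least 1 factor, except Reg3b, and in the others they were lowered by at least 1 factor, except Mogat2, an enzyme of fat absorption, and the lipoprotein receptor gene Scarb1, which passed 1.5-fold with neither. Antimicrobial genes were also the only process list with 2 members below the sum, Saa3 and Pigr.

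**Figure D5:**
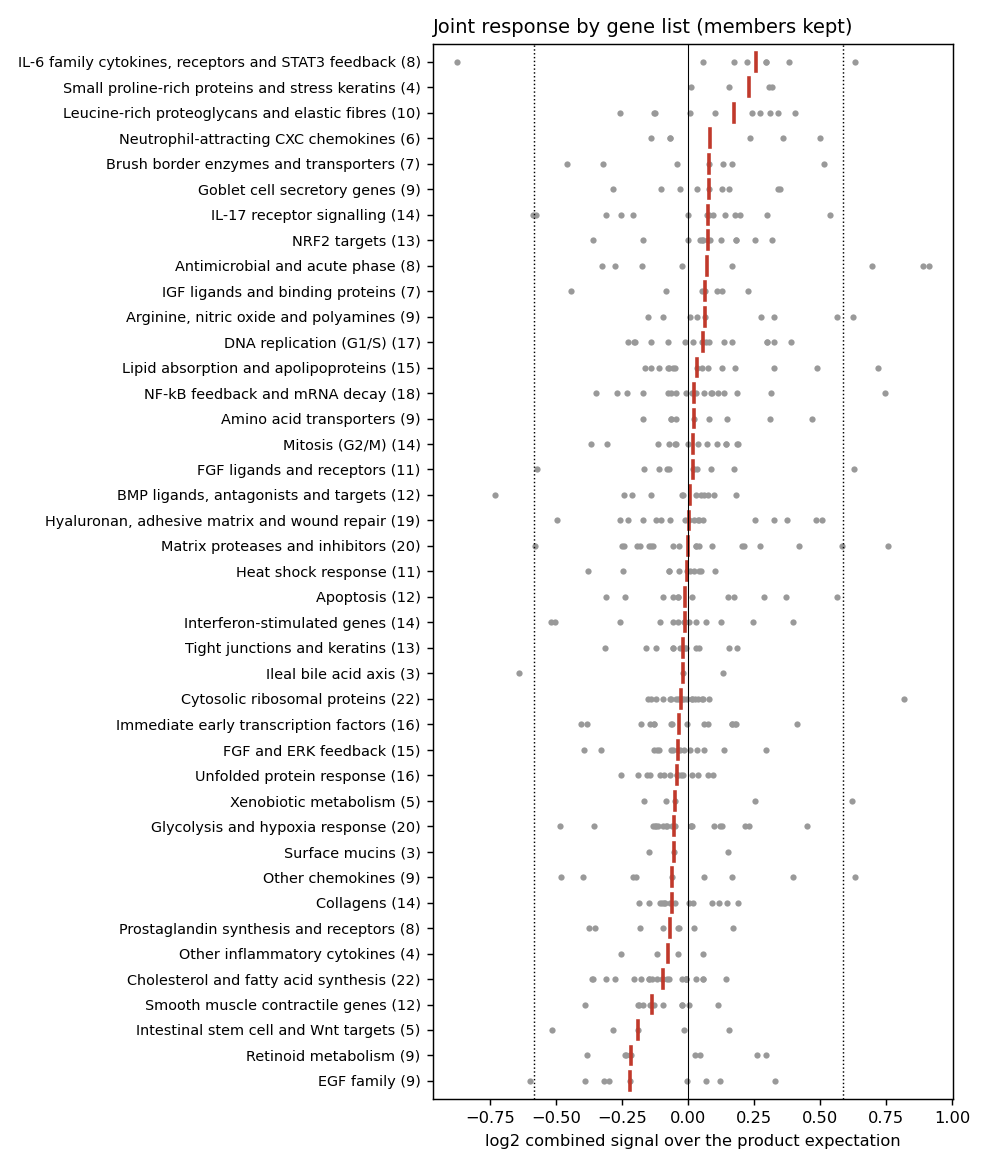
Departure from the product (log2) for the kept members of each process list, with the number kept in brackets. Grey points are genes, red ticks list medians and dotted lines 1.5-fold. Medians lie between −0.22 and 0.26, and single members such as Il11, Lif, Saa3 and Grem1 lie outside the dotted lines.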

How the data were processed

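Expression was measured on 4 Affymetrix arrays, 1 per group, each group taken from its label. The authors' deposited values are log2 signals, which MAS5 (of unstated version) gave from the probes, per the submitters' processing notes. Their antilogs had a trimmed mean (2% off each end) of 500 on every array. MAS5 subtracts mismatch signal, so dim values are noisy. The number of arrays limits the precision. Of 45101 probe sets, 64 were controls, and the platform annotation gave 1 symbol to 34945, several to 932 and none to 9160. Only those with 1 symbol were used.

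Each gene took its brightest probe set, kept at a mean log2 of at least 8. Signals under the median of all signals (89.8) were raised to it, which touched 0 of the 8851 kept genes. Both expectations were computed per gene, and departures counted at 1.5-fold. Classes of single response used 1.5-fold against untreated. With 1 array per group no test or p-value was computed.

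The genes named were the 15 highest and 15 lowest departures from the product, the 10 highest and 10 lowest ratios to the sum and differences from it in signal units, genes in which a factor's direction changed by 1.5-fold each way, and kept list members. Clone symbols and genes whose other probe sets departed the other way were passed over. The shown promoters and the class members outside this rule (Ramp3, Hgf, Adamdec1, Apoa1 and the like) were chosen after their values were seen. The members and lists were chosen with earlier results of these data known. Of 772 list entries, 65 had no matching gene. Alternatives were other floors, scalings, probe set rules, brightness minimums and folds.

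Calculations used Python 3.11.15, numpy 2.4.6, pandas 2.3.3 and scipy 1.17.1, and were tested on simulated arrays with 200 changed genes.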

Additional observations from a re-analysis of the deposited data

Results flagged for a closer look

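In 3 kept genes, all dim, 1 factor moved the gene at least 1.5-fold one way without the other factor and at least 1.5-fold the other way with it. None of these differences was tested. Ces5a, a carboxylesterase gene, had signals of 285 untreated, 483 with IL-17A, 273 with FGF2 and 125 with both, and departed from the product by −1.89. Tm7sf3 had 267, 604, 415 and 348 (departure −1.43), while its other probe set departed by −0.13. Unc93b1, a chaperone of endosomal Toll-like receptors, had 349, 205, 205 and 326 (departure 1.44). No group held more than 1 array, so a sample far from its group could not be looked for.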

How the results depend on the processing

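No paired analysis was possible because each group was 1 array, and for the same reason no array could be left out. Counts for the classes of single response were added to the alternatives after seeing the data. Values below are in the order genes above the product, below it, above the sum and below it (153, 103, 281 and 85 as reported). They were 62, 32, 67 and 27 with a 75th percentile floor, 84, 47, 166 and 39 with the floor added to signals, 56, 34, 110 and 25 at a mean log2 of at least 9, and 326, 238, 503 and 193 at 7. At a looser limit (25% above an expectation, or the same fold below it) they were 754, 568, 919 and 506, and at 2-fold 14, 10, 65 and 8. Genes raised by both factors (25; 8 below the product, 6 above the sum) numbered 11 (3 and 3) with the 75th percentile floor, 11 (3 below the product) with the added floor and 41 (20 below the product) at 7. Those below the product were 5 at a mean of 9, 15 at the looser limit and 4 at 2-fold. Genes lowered by both (39; 13 above the product, 36 above the sum) numbered 23 (7 above the sum), 21 (6 and 20), 19 (5 and 17) and 77 (36 and 60) under the 75th percentile floor, the added floor, 9 and 7. Those above the product were 22 at the looser limit and 6 at 2-fold. The 11 opposed genes (5 below the sum) numbered 5 under the 75th percentile floor, 7 (3 below the sum) under the added floor and 5 at a mean of 9, and at 2-fold 2 were below the sum. In all, 52 counts moved by over 1.5 times and 98 did not, the latter including every count under quantile normalization and median centring. Of 139 genes followed singly, 98 departed from the product by at least 1 SD between probe sets, and 11 of these changed sign under some alternative. Among genes counted as off the product 4 did so: Fgf15 (0.060) and Gfap (−0.19) under the 75th percentile floor, and C1qb (−0.15) and Gstm1 (−0.093) without probe sets open to related transcripts. The other 7 were Cemip (0.30), Cyp7b1 (−0.55), Prg4 (0.27) and Ptx3 (−0.55) under the 75th percentile floor, Cp (0.21) and Ptges (0.13) with the mean of probe sets, and Aspn, which departed by −0.12 with that mean and by −0.54 without those probe sets. The cause was not tested. Over all genes and alternatives, 81 moved by more than 1 SD between probe sets and 1367 did not.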

Other observations

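Processes that supply growth lay close to the product, as most genes did. Of all 8851 kept genes, 4.53% were off either expectation, so counts of none in short lists set these processes apart little. None (0) of the 17 kept genes of DNA replication, 14 of mitosis, 16 of the unfolded protein response, 11 of the heat shock response, 20 of glycolysis and hypoxia, 14 collagens or 22 of cholesterol and fatty acid synthesis was off either expectation. The last list had a median departure of −0.10 with 4 of 22 genes above 0, beside 54.3% of all kept genes. Over the alternatives its median was −0.15 to −0.08. Scd2, a fatty acid desaturase, had 12907, 14148, 15417 and 14925 without a factor, with IL-17A, with FGF2 and with both. Claudin 4, a tight junction protein (Cldn4), had 11128, 12451, 13425 and 12085, the furthest below the sum in signal units among the genes named (by 2663 units). Its departure from the product was −0.31.

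The brightest probe sets of some genes of mitochondria and nucleotide supply were highest on the combined array although neither factor alone raised them 1.5-fold. Nme1, a nucleoside diphosphate kinase, had 6613, 5334, 6389 and 8919 (departure 0.79, ratio to the sum 1.75), and its other probe set departed by 0.03. Ndufs8, a subunit of respiratory complex I, had 5485, 5194, 4449 and 6571 (0.64, 1.58), but its 4 other probe sets departed by 0.05 to 0.33. Atp5md, a small protein of the ATP synthase, had 10465, 10535, 9042 and 12015 (0.40, 1.32). The ribosomal protein gene Rpl37, read by a probe set of a kind open to related transcripts, departed by 0.82. The median of 22 kept cytosolic ribosomal protein genes was −0.03, and Rpl37 was the 1 member off the product.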
